A study of Glycine max with 20 samples.

Results

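The 8 genes described here encode beta-conglycinin, the 7S storage globulin of soybean seeds. They are the models Glyma.02G145700.1, Glyma.10G028300.1, Glyma.10G246300.1, Glyma.10G246500.1, Glyma.20G146200.1, Glyma.20G148200.1, Glyma.20G148300.1 and Glyma.20G148400.1, which the study calls conglycinin, and they were chosen by this name and not by their counts. They were 8 of the 88515 transcript models counted, and 8 of 55912 genes when splice variants are merged. The deposited tables annotate all 8 as cupin family proteins, which gives the family but not the subunit each encodes. By their names, 1 lies on chromosome 2, 3 lie on chromosome 10 and 4 lie on chromosome 20. Their cDNA lengths ran from 1488 bases (Glyma.20G146200.1) to 2106 bases (Glyma.10G246300.1), and 3 of the 8 genes have a second splice variant.

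Beta-conglycinin belongs to the vicilin class of seed globulins, whose subunits are built from cupin barrels and assemble into trimers. The subunits are made on ribosomes of the rough endoplasmic reticulum, cross the Golgi and are packed in the protein storage vacuoles of the cotyledons, where they feed the seedling after germination. Together with glycinin, the 11S globulin, it makes up most of the protein of a soybean seed. Cotyledons are the embryo's storage leaves. The seed coat is maternal tissue that surrounds the embryo and unloads sugars and amino acids to it.

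All plants were soybean (Glycine max) of the cultivar Williams from a greenhouse, with no treatment, and seeds were dissected into cotyledons (C) and seed coats (SC). Seeds weighed 25 to 50 mg (early maturation, C25 and SC25), 100 to 200 mg (mid maturation, C100 and SC100) or 300 to 400 mg (late maturation, yellow seed, cotyledons only, C300). Control libraries (CT) hold fragments of total RNA, and footprint libraries (FP) hold the fragments that ribosomes protected from nuclease. The labels number the libraries as biological repeats without naming plants, so p-values measure the spread between these samples.

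Counts of 18 libraries were analysed, 10 of cotyledons and 8 of seed coats, with 2 libraries in each group except C100 FP and C300 FP, which had 1 each. A second footprint library of either later cotyledon stage was not analysed here. Total counts ranged from 7205928 to 32562521, and the most abundant single model took between 3.27% and 50.7% of a library's counts. Levels are RPKM, the count scaled to the length of the cDNA and the total of the library, and a model of 1 kb with 3 counts had between 0.0921 and 0.416 RPKM. Such floors cover counting error only, since reads carry no molecular identifiers. Pearson's r of log2 RPKM between replicates over 70288 models was 0.883 to 0.953 in the cotyledon groups and 0.742 to 0.847 in the seed coat groups. As a check of the tissue labels, all 5 cotyledon markers (4 glycinins and the seed lectin) were at 15.2 RPKM or more in every cotyledon library. The 3 seed coat markers (2 sugar efflux transporters and a peroxidase) lay between 6.37 and 185 RPKM in every seed coat library.

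SC25 CT replicate 1, C25 FP replicate 2 and SC100 CT replicate 1 stood apart from their partners. SC25 CT replicate 1 held the cotyledon markers at a summed 113 RPKM against 3.56 RPKM in replicate 2, with similar seed coat markers in both (162 and 156 RPKM). C25 FP replicate 2 held the 3 seed coat markers at 2.25 to 4.71 RPKM, whereas all 3 were at 0 in replicate 1. Most results that rest on these libraries are given with and without them.

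The 8 models are not 8 independent measurements. The study's alignment counted a read at each model it matched, so near-identical copies share reads. Glyma.20G146200.1 and Glyma.20G148200.1 had the same count in 11 of 18 libraries, and differed by at most 49 counts (31910 against 31861, C300 CT replicate 2). Relative to the square root of their sum the largest difference was 0.255 (195 against 190 counts, SC100 CT replicate 2). In the other pair, Glyma.20G148300.1 with Glyma.20G148400.1, counts were the same in 6 of 18 libraries, and their largest difference, in C300 CT replicate 1, was 110979 against 112326 counts, or 2.85 of the square root of their sum. Independent counts of equally abundant genes differ by about 1 such unit (root mean square). The root mean square was 0.108 in the first pair, far below it, and 1.07 in the second, whose counts never differed by more than 1.94%. The 1.07 does not make the second pair independent. In the study both of its models had equal numbers of coding sequence reads in a C300 control and a C300 footprint library. The reads of either pair could not be assigned to 1 gene from these counts, and each pair is read below as 1 profile (the Glyma.20G146200.1 pair and the Glyma.20G148300.1 pair), with sums over the 8 models counting shared reads at both. The second splice variants are not described here.

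The Glyma.20G148300.1 pair was the most abundant profile at the early and mid stages. In control RNA, Glyma.20G148300.1 had 915 and 1118 RPKM in the C25 replicates, 3611 and 2736 RPKM at C100, and 2770 and 1544 RPKM at C300. Glyma.20G148400.1 had 912 and 1118 RPKM at C25, 3604 and 2727 RPKM at C100, and 2776 and 1548 RPKM at C300. Both C100 libraries lay above both C25 libraries, while the C100 and C300 ranges overlapped.

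Glyma.10G246300.1 followed at somewhat lower levels. It had 763 and 915 RPKM at C25, 2131 and 1661 RPKM at C100, and 1635 and 986 RPKM at C300. Both C300 libraries lay below both C100 libraries. Its ratio to Glyma.20G148300.1 within a library was 0.834 and 0.818 at C25, 0.590 and 0.607 at C100, and 0.590 and 0.639 at C300, so it lost ground to that pair between the early and the mid stage.

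The Glyma.20G146200.1 pair rose at both steps. Glyma.20G146200.1 had 51.3 and 53.9 RPKM at C25, 258 and 254 RPKM at C100, and 2076 and 1793 RPKM at C300, and Glyma.20G148200.1 had 51.3 and 53.8 RPKM, 259 and 254 RPKM, and 2074 and 1789 RPKM. The 3 stages did not overlap. The mean of Glyma.20G146200.1 was 4.87-fold higher at C100 than at C25 and 7.56-fold higher at C300 than at C100, or 36.8-fold over both steps. The RPKM ratio of Glyma.20G148200.1 to Glyma.20G148300.1 within a library was 0.0560 and 0.0481 at C25, 0.0717 and 0.0929 at C100, and 0.749 and 1.16 at C300.

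Glyma.10G028300.1 had intermediate levels, with 161 and 188 RPKM at C25, 414 and 325 RPKM at C100, and 421 and 296 RPKM at C300. Glyma.02G145700.1 had 32.5 and 35.2 RPKM at C25, 150 and 121 RPKM at C100, and 172 and 117 RPKM at C300. In both, the C300 libraries enclosed the C100 libraries. Glyma.10G246500.1 had the lowest mean control RNA at each cotyledon stage, with 23.0 and 33.9 RPKM at C25, 79.3 and 76.6 RPKM at C100, and 155 and 120 RPKM at C300, and like the Glyma.20G146200.1 pair it had no overlap between stages.

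**Figure D1:**
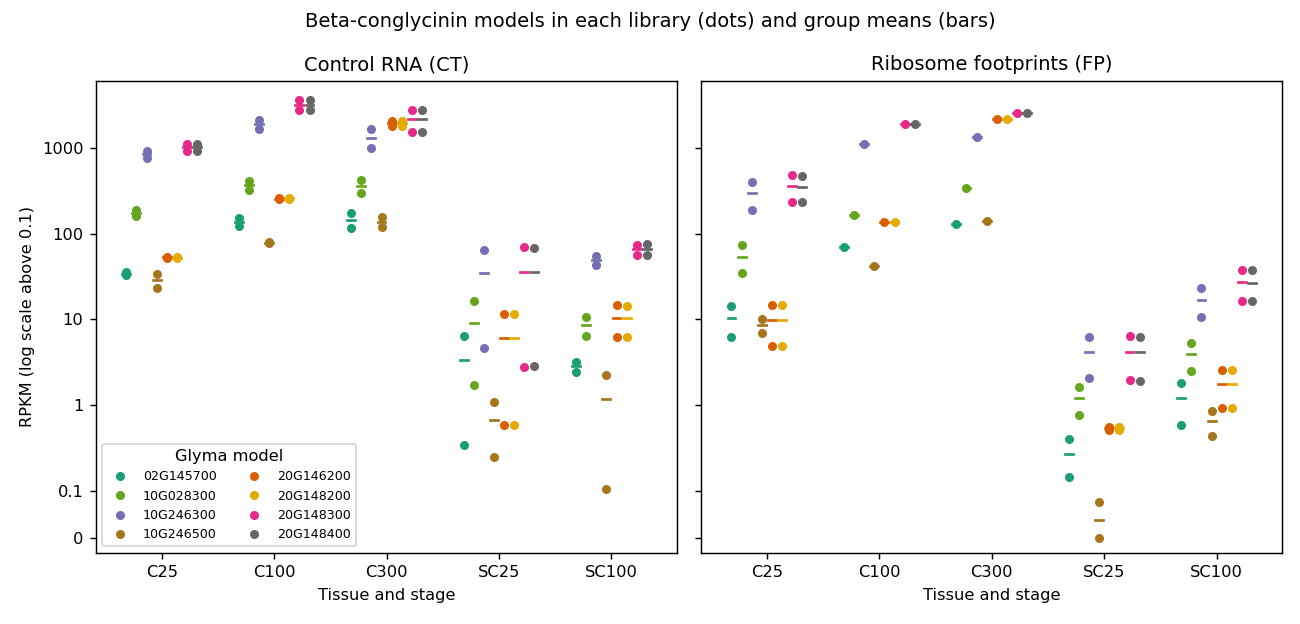
RPKM of each model (y axis, logarithmic above 0.1) by tissue and stage (x axis) in control RNA (left) and footprints (right), with dots for libraries and short bars for group means. The orange and yellow dots of the Glyma.20G146200.1 pair climb from 51.3 to 53.9 RPKM at C25 to between 1789 and 2076 RPKM at C300 in control RNA, and the 2 SC25 CT libraries lie far apart for each model.

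In order of mean control RNA at C25, the Glyma.20G148300.1 pair (1016 and 1015 RPKM) was followed by Glyma.10G246300.1 (839 RPKM), Glyma.10G028300.1 (174 RPKM), the Glyma.20G146200.1 pair (52.6 and 52.5 RPKM), Glyma.02G145700.1 (33.8 RPKM) and Glyma.10G246500.1 (28.4 RPKM). The ranges of the Glyma.20G148300.1 pair and Glyma.10G246300.1 touched, as did those of Glyma.02G145700.1 and Glyma.10G246500.1, and the other neighbours were apart. At C100 the order was the same, and no neighbours other than the copies overlapped. At C300 the Glyma.20G146200.1 pair (1935 and 1931 RPKM) had passed Glyma.10G246300.1 (1311 RPKM), with no overlap, and lay within the range of the Glyma.20G148300.1 pair (2157 and 2162 RPKM). Among 14888 primary models with at least 1 RPKM in C25 CT, the 8 models ranked between 73 and 546. In C300 CT they ranked between 51 and 185 of 8027.

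The first stage comparison asked which of the genes gained RNA between early and mid maturation. In bulk tissue, fewer cells of a type and less RNA per cell cannot be told apart. All 8 models had more RNA at C100, and the share of all 62839 models tested that were called higher was 8.04%. The log2 fold changes ran from 2.15 ± 0.26 (SE, Glyma.10G028300.1, adjusted p = 1.31e-05) to 3.37 ± 0.30 (Glyma.20G148200.1, adjusted p = 4.73e-07) with edgeR's quasi-likelihood test on the 6 cotyledon CT libraries, and their median was 2.71. The remaining values were 2.25 for Glyma.10G246300.1, 2.56 for Glyma.10G246500.1, 2.71 for each model of the Glyma.20G148300.1 pair, 3.06 for Glyma.02G145700.1 and 3.36 for Glyma.20G146200.1. The median over all models tested was -0.08. These values use TMM scaling, which moves the median of all models by 1.03 relative to library totals. On totals the median of the 8 was 1.64, and all 8 were still called higher.

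Between the mid and the late stage, of the 8 models only the Glyma.20G146200.1 pair was called. Glyma.20G146200.1 was higher at C300 by 2.83 ± 0.30 on the log2 scale (adjusted p = 1.38e-05, edgeR) and Glyma.20G148200.1 by 2.82 ± 0.30 (adjusted p = 1.40e-05), against 2.93% of all models called higher. Of the other 6 models, the estimate was 0.72 ± 0.23 for Glyma.10G246500.1 (adjusted p = 0.0786), which was also called in DESeq2 and without C300 CT replicate 2. It was -0.66 ± 0.31 for Glyma.20G148300.1 (adjusted p = 0.263), -0.65 for Glyma.20G148400.1, -0.63 ± 0.30 for Glyma.10G246300.1 (adjusted p = 0.258), -0.13 for Glyma.10G028300.1 and -0.00 for Glyma.02G145700.1. None of these passed the test, which does not show that the levels stayed the same.

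Over the whole interval from C25 to C300 all 8 models were higher, against 12.3% of all models called higher. The log2 fold changes were 6.19 ± 0.35 for each model of the Glyma.20G146200.1 pair (adjusted p = 6.87e-10, edgeR), 3.28 for Glyma.10G246500.1, 3.06 for Glyma.02G145700.1, 2.05 for each model of the Glyma.20G148300.1 pair, 2.02 for Glyma.10G028300.1 and 1.61 ± 0.30 for Glyma.10G246300.1 (adjusted p = 0.000659). On library totals 5 of the 8 were called. The C25, C100 and C300 libraries enter all 3 comparisons, so these are not independent of each other.

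**Figure D2:**
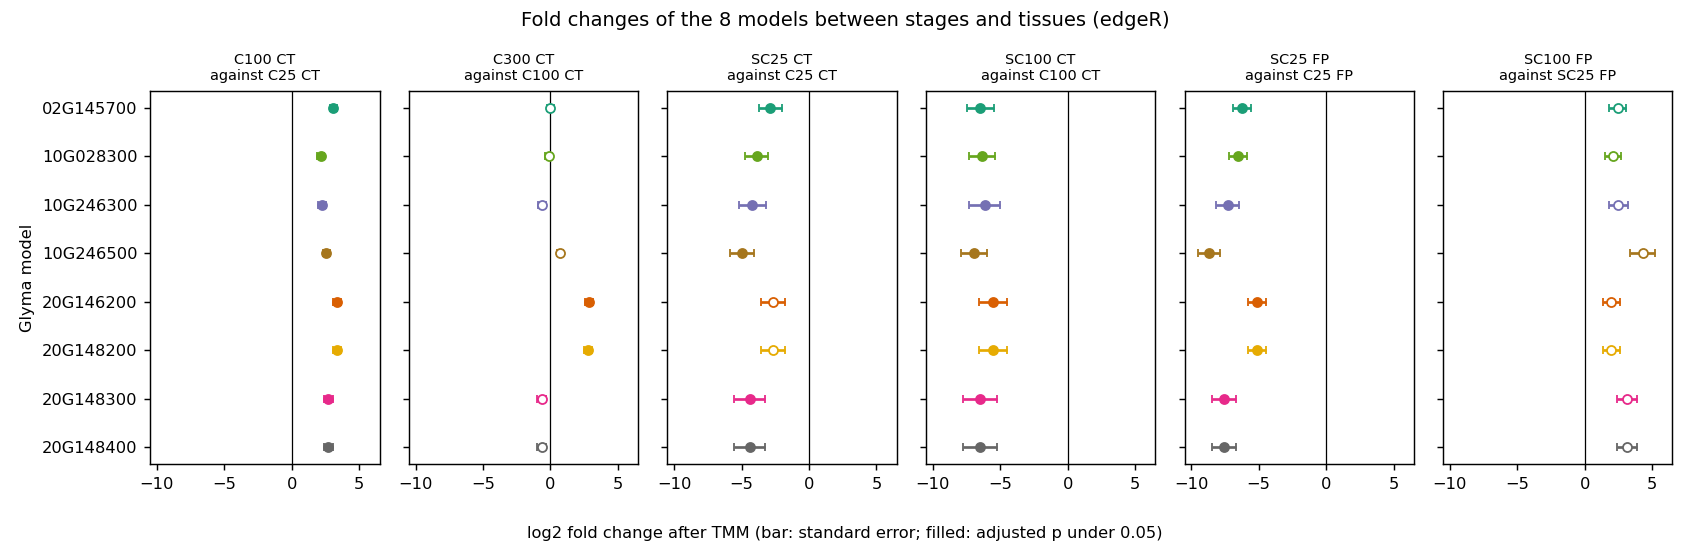
Log2 fold change of each model (x axis, after TMM scaling) in 6 comparisons, with bars for the standard error and filled points for an adjusted p under 0.05 (edgeR). All 8 points are filled at C100 against C25, only the Glyma.20G146200.1 pair is filled at C300 against C100, and no point is filled for SC100 FP against SC25 FP.

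The make-up of beta-conglycinin RNA is a ratio within a library and does not depend on how libraries are scaled. The Glyma.20G146200.1 pair gave 3.53% and 3.06% of the summed RPKM of the 8 models in the C25 CT replicates, 4.92% and 6.23% at C100, and 34.4% and 43.7% at C300. The Glyma.20G148300.1 pair gave 62.8% and 63.6% at C25, 68.7% and 67.0% at C100, and 45.9% and 37.7% at C300. Thus the share of the first pair rose and that of the second fell at the last step, with no overlap between the C100 and C300 libraries.

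Glyma.10G246300.1 gave 26.2% and 26.0% at C25, 20.3% and 20.4% at C100, and 13.5% and 12.04% at C300. Glyma.10G028300.1 gave between 3.49% and 5.52% in these 6 libraries and Glyma.02G145700.1 between 1.00% and 1.48%. The footprints had the same make-up to within a few percentage points. The Glyma.20G146200.1 pair gave 1.97% and 1.38% of the footprint RPKM at C25, 5.06% at C100 and 38.4% at C300, so its share was smaller in the footprints than in the RNA at C25.

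**Figure D3:**
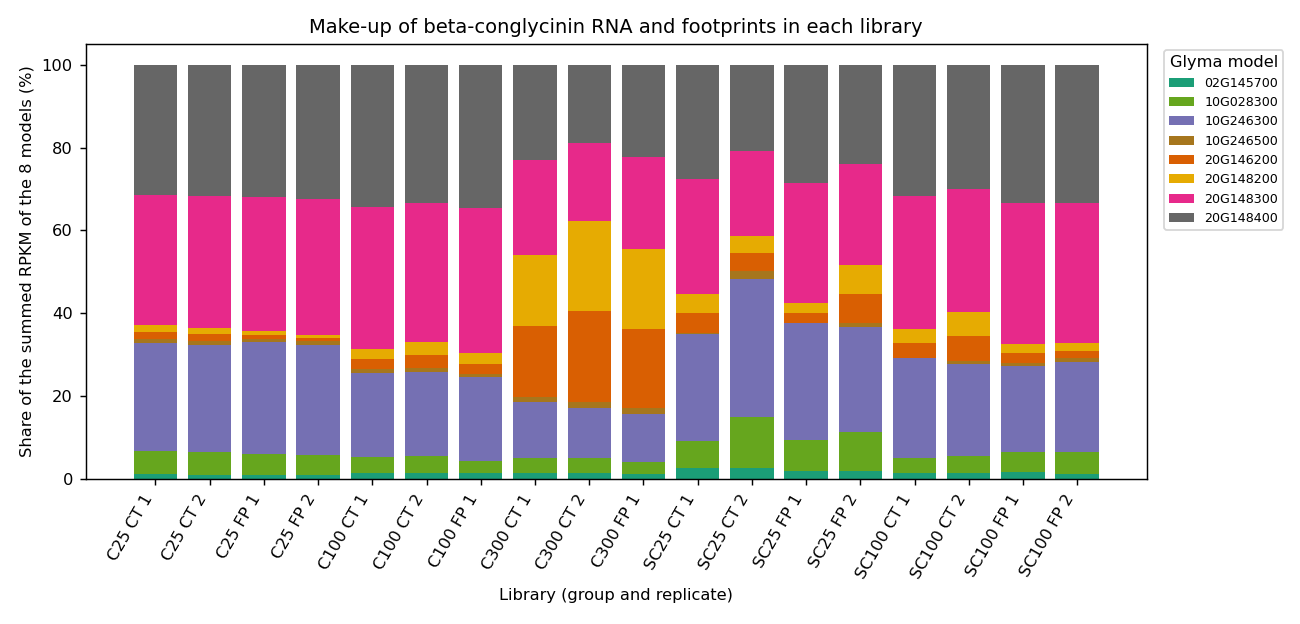
Share of each model in the summed RPKM of the 8 models (y axis, percent) in each library (x axis). The Glyma.20G146200.1 pair takes 34.4% to 43.7% of the bar in the 3 C300 libraries and at most 13.9% in any other library.

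Summed over the 8 models, beta-conglycinin took 0.581% and 0.703% of all counts in the C25 CT replicates, 2.09% and 1.61% at C100, and 2.21% and 1.46% at C300. In the footprints it took 1.08% at C100 and 2.06% at C300, after 0.297% and 0.143% at C25. The mid and late RNA shares overlapped, whereas the single late footprint library was above the single mid one, a difference with no replicate check.

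Footprints of Glyma.20G148300.1 were at 478 and 233 RPKM in the C25 replicates, 1909 RPKM at C100 and 2552 RPKM at C300, and Glyma.20G148400.1 had 473, 231, 1893 and 2528 RPKM. Those of Glyma.10G246300.1 were at 403 and 190 RPKM, 1099 RPKM and 1324 RPKM. The early replicates of Glyma.20G148300.1 differed 2.05-fold, and its late library was 1.34-fold above its mid library.

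The Glyma.20G146200.1 pair had the steepest course in footprints. Glyma.20G146200.1 had 14.6 and 4.92 RPKM at C25, 138 RPKM at C100 and 2192 RPKM at C300, and Glyma.20G148200.1 had 14.6, 4.92, 138 and 2189 RPKM. The single C300 library was 225-fold above the C25 mean for Glyma.20G146200.1. That mean includes C25 FP replicate 2, and replicate 1 was 2.96-fold above it. At C300 the pair ranked 25 and 26 among 5003 primary models with at least 1 RPKM of footprints, next to the Glyma.20G148300.1 pair at ranks 22 and 23.

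Glyma.10G028300.1 had 72.5 and 34.97 RPKM of footprints at C25, 166 RPKM at C100 and 342 RPKM at C300. Glyma.02G145700.1 had 14.3 and 6.19 RPKM, 70.0 RPKM and 131 RPKM. Glyma.10G246500.1 had 10.2 and 6.84 RPKM, 41.8 RPKM and 141 RPKM. All 8 models had their highest footprint level at C300, although 4 of the 8 had their highest mean control RNA at C100. On TMM-scaled RPKM, 4 of the 8 were highest in footprints at C300.

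Translational efficiency (TE) was taken as the mean footprint RPKM over the mean control RPKM of a stage, the ratio the study used. At C100 and C300 it rests on 1 footprint library here, where the study averaged its repeats, so the values differ from the study's. The TE of the 8 models lay between 0.185 and 0.353 at the early stage, with a median of 0.306. The mid stage had 0.448 to 0.601, with a median of 0.538, and the late stage 0.906 to 1.18, with a median of 1.08. All 8 models had a higher value at each later stage, and 6 had a TE above 1 at C300. In replicate pair 1 alone the C300 median was 0.912 and 2 models, the Glyma.20G146200.1 pair, were above 1. In the study's averaged values, too, this pair was the only one of the 8 models above 1 at C300. For comparison, the median over all primary models with at least 10 RPKM of control RNA was 0.250 at C25 (1494 models), 0.283 at C100 (835 models) and 0.508 at C300 (784 models), so the medians of the 8 were 1.22, 1.90 and 2.13 times those of all models.

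These ratios depend strongly on the scaling and on single libraries. On TMM-scaled RPKM the medians of the 8 were 1.48, 1.74 and 1.89, and 5 models had a rise at both steps. In replicate pairs the median at C25 was 0.448 in pair 1 and 0.194 in pair 2, which holds the footprint library with seed coat markers. The part that these markers' source has in the difference was not tested. At C300 the number of models with a TE above 1 was 2 without C300 CT replicate 2 and 8 without C300 CT replicate 1.

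The Glyma.20G146200.1 pair had the lowest TE of the family at C25, 0.185, against 0.299 to 0.353 for the other 6 models. In pair 1 its value was 0.284 against 0.442 to 0.528, and in pair 2 it was 0.0914 against 0.176 to 0.209, so it lay below the others in both. At C100 its TE was 0.539 and 0.537, inside the range of the others (0.448 to 0.601), and at C300 it was 1.13, inside a range of 0.906 to 1.18. From C25 to C300 the ratio of its TE values was 6.12, against 2.86 to 3.44 for the other models. No p was computed for these ratios.

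**Figure D4:**
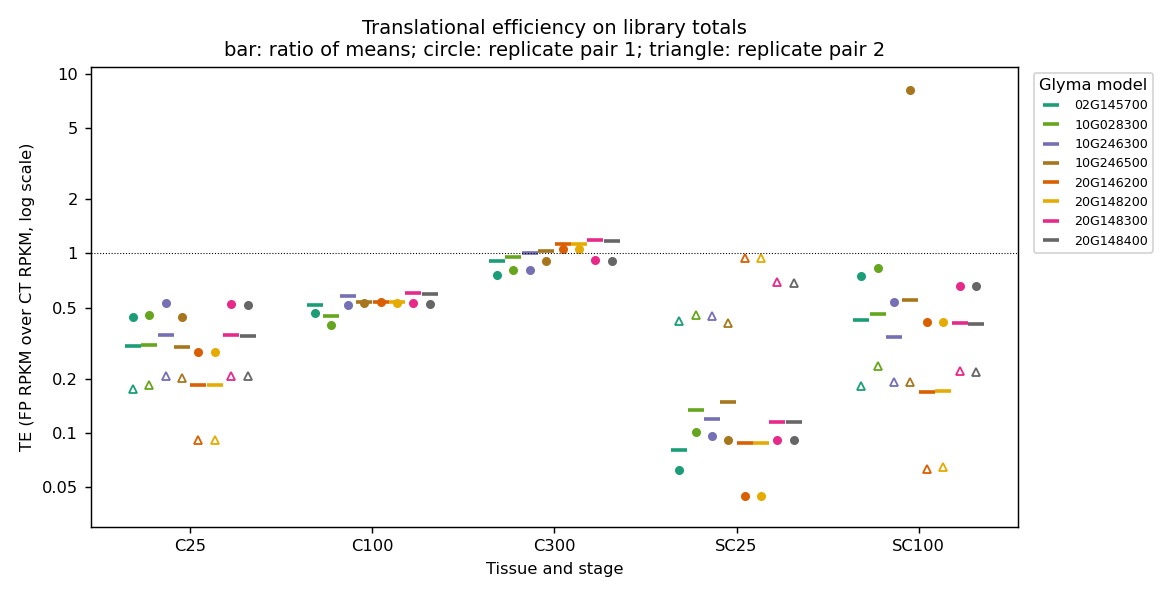
TE of each model (y axis, logarithmic, library totals) by tissue and stage (x axis), with a bar for the ratio of means, a circle for replicate pair 1 and an open triangle for replicate pair 2. The cotyledon bars lie between 0.185 and 0.353 at C25 and between 0.906 and 1.18 at C300, and the pairs of SC25 and SC100 lie apart.

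A test of footprints against control RNA was possible at C25. None of the 8 models passed at an adjusted p under 0.05 with edgeR or with DESeq2, 1 had an unadjusted p under 0.05 in edgeR and 4 in DESeq2, and 11.3% of all models were called in either direction. Relative to the bulk of models, that is after TMM, 6 models were at 0.61 to 0.84 on the log2 scale and the Glyma.20G146200.1 pair was at -0.13 ± 0.34 (adjusted p = 0.848). With a library left out, the estimates of these 6 models ran from 0.13 to 1.17. Those of the pair ran from -0.84 to 0.36, with 0.36 without C25 FP replicate 2. The lack of calls did not hold without C25 FP replicate 2, where models were called higher, or without replicate 1, where models were called lower. Each of these fits has 1 footprint library and so no spread between footprint libraries. On library totals the median of the 8 was -1.71 and 5 were called lower. In that fit 50284 of all 57203 models were called lower, and the median over all models was -2.50. TMM moved the median of all models by 2.36 in this comparison, so the direction for footprints against RNA at C25 depends on the scaling.

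The change in TE between stages was tested as an interaction, with the single footprint libraries of C100 and C300 assumed to vary like the other groups. None of the 8 models passed for C100 against C25 or for C300 against C25 with either tool, and none had an unadjusted p under 0.05 in edgeR. In DESeq2, 2 had such a p for C300 against C25. Of all models, 0.0140% and 0.0124% were called. With the powdered sample as a block no member was called either. The median log2 estimates were 0.26 and 0.24 after TMM, and 0.78 and 1.75 on library totals. The rise in the ratios given above is therefore a description.

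In seed coats the same models were present at much lower levels. In SC100 CT, Glyma.20G148300.1 had 56.9 and 74.4 RPKM, Glyma.20G148400.1 had 56.3 and 74.9 RPKM and Glyma.10G246300.1 had 43.0 and 55.1 RPKM. The Glyma.20G146200.1 pair had 6.21 and 14.7 RPKM and 6.21 and 14.3 RPKM, and Glyma.10G028300.1 had 6.44 and 10.7 RPKM. Glyma.02G145700.1 had 2.44 and 3.20 RPKM, and Glyma.10G246500.1 had 0.11 and 2.26 RPKM, from 2 and 36 counts. These means were 1.52% to 4.09% of those in C100 CT.

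The cotyledon markers stood beside the 8 models in each seed coat library. Summed over the models, beta-conglycinin in SC100 CT was at 1.90% and 2.67% of the C100 CT mean, and the 5 markers at 1.67% and 1.92%. In the SC100 footprints the 8 models were at 2.03% and 0.895% of C100 FP and the markers at 1.69% and 0.560%. The part that cotyledon RNA in the dissected coats has in these levels was not tested.

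All 8 models were lower in SC100 CT than in C100 CT, against 3.53% of all models called lower. The log2 fold changes ran from -6.96 ± 0.98 (Glyma.10G246500.1, adjusted p = 0.000374, edgeR, 8 CT libraries) to -5.51 ± 1.03 (Glyma.20G146200.1, adjusted p = 0.00352). Fitted on the 4 libraries of this stage alone, an alternative added after seeing the data, all 8 were again lower, with a median of -6.32. Without SC100 CT replicate 1 only 1 of the 8 was called, at a median of -5.86.

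The early seed coat rested on 2 unlike libraries. Glyma.20G148300.1 had 69.3 and 2.81 RPKM in SC25 CT replicates 1 and 2, Glyma.20G148400.1 had 68.6 and 2.84 RPKM, and Glyma.10G246300.1 had 64.2 and 4.58 RPKM. The Glyma.20G146200.1 pair had 11.6 and 0.59 RPKM in each model, Glyma.10G028300.1 had 16.2 and 1.69 RPKM, Glyma.02G145700.1 had 6.44 and 0.34 RPKM and Glyma.10G246500.1 had 1.10 and 0.25 RPKM. By mean, the order of the models was led by the Glyma.20G148300.1 pair and ended with Glyma.10G246500.1, but all neighbours in it overlapped. Replicate 1 was 4.48-fold (Glyma.10G246500.1) to 24.7-fold (Glyma.20G148300.1) above replicate 2. The summed level of the 8 was 7.76% of the C25 CT mean in replicate 1 and 0.426% in replicate 2, and the cotyledon markers moved with it, at 20.4% and 0.642%.

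**Figure D5:**
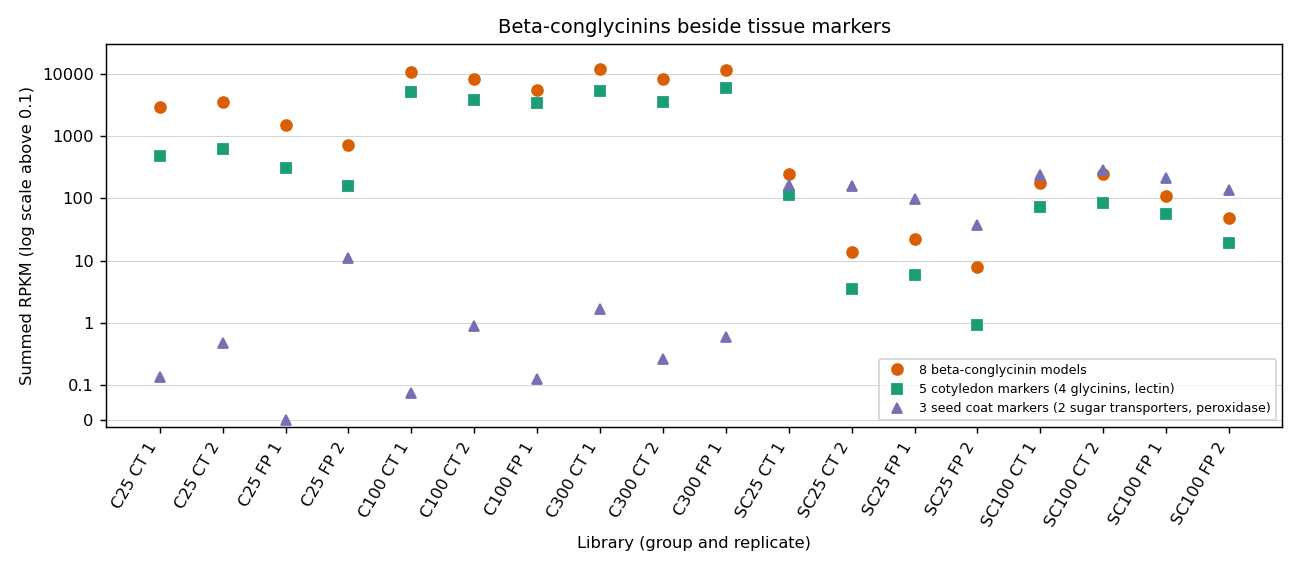
Summed RPKM (y axis, logarithmic above 0.1) of the 8 models, the 5 cotyledon markers and the 3 seed coat markers in each library (x axis). In SC25 CT the 8 models sum to 249 and 13.7 RPKM and the cotyledon markers to 113 and 3.56 RPKM in replicates 1 and 2, while the seed coat markers lie at 162 and 156 RPKM.

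Against C25 CT, 6 of the 8 models were called lower in SC25 CT, and 3.64% of all models were. The estimates ran from -4.95 ± 0.89 (Glyma.10G246500.1, adjusted p = 0.00211, edgeR) to -2.68 ± 0.90 for the Glyma.20G146200.1 pair, which was not called (adjusted p = 0.0824 and 0.0818). The number called was 8 without SC25 CT replicate 1, at a median of -7.09, and 6 without SC25 CT replicate 2, at a median of -2.74. It was 1 on the 4 libraries of this stage alone. It was 3 without either C25 CT library, without C100 CT replicate 1 or without SC100 CT replicate 2, and 2 without SC100 CT replicate 1. All 8 estimates were below 0 in each of these fits, but the number past the threshold was not stable.

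Between the seed coat stages no model was called in control RNA, with 0 unadjusted p under 0.05 in edgeR or DESeq2, and 0.0208% of all models were called. The median estimate, 0.44 for SC100 against SC25, became 4.21 without SC25 CT replicate 1 and -0.69 without SC25 CT replicate 2, so its direction rests on these libraries. The test of whether the tissue difference was larger at the mid stage gave a median of -2.26 and no call in edgeR or DESeq2, 4 models with an unadjusted p under 0.05 in edgeR, and 0.0981% of all models called. Its median was 1.29 without SC25 CT replicate 1, and it ran from -3.47 to 1.29 with a library left out.

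In seed coat footprints the early levels were low, and 4 models had under 10 counts in a library. In SC25 FP, Glyma.20G148300.1 had 6.35 and 1.95 RPKM, Glyma.20G148400.1 had 6.28 and 1.93 RPKM, Glyma.10G246300.1 had 6.21 and 2.04 RPKM and Glyma.10G028300.1 had 1.63 and 0.76 RPKM. The Glyma.20G146200.1 pair had 0.52 and 0.56 RPKM in each model, from 7 and 6 counts. Glyma.02G145700.1 had 0.40 and 0.14 RPKM, from 7 and 2 counts. Glyma.10G246500.1 had 0 counts in replicate 1, which allows up to 0.184 RPKM (3 counts), and 1 count in replicate 2.

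In SC100 FP the levels were 37.5 and 16.5 RPKM for Glyma.20G148300.1, 37.1 and 16.3 RPKM for Glyma.20G148400.1, 23.0 and 10.6 RPKM for Glyma.10G246300.1 and 5.34 and 2.52 RPKM for Glyma.10G028300.1. The Glyma.20G146200.1 pair had 2.60 and 0.93 RPKM and 2.59 and 0.93 RPKM, Glyma.02G145700.1 had 1.82 and 0.58 RPKM and Glyma.10G246500.1 had 0.86 and 0.43 RPKM. Each model was higher in both SC100 libraries than in both SC25 libraries. The 5 cotyledon markers moved with them, at a summed 5.92 and 0.918 RPKM in SC25 FP and 56.7 and 18.8 RPKM in SC100 FP. In SC25 FP the summed level of the 8 models was 2.00% and 0.733% of the C25 FP mean, and the markers were at 2.54% and 0.393%. The part of cotyledon RNA in these levels was not tested.

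All 8 models were lower in SC25 FP than in C25 FP, against 3.26% of all models called lower. The estimates ran from -8.69 ± 0.84 (Glyma.10G246500.1, adjusted p = 0.000632, edgeR, 6 FP libraries) to -5.10 ± 0.67 (the Glyma.20G146200.1 pair, adjusted p = 0.00172). The count stayed at 8 without any 1 of the 6 libraries. For Glyma.10G246500.1, with 0 and 1 counts in SC25 FP, the estimate against C25 FP ran from -11.2 to -7.15 with a library left out. From SC25 FP to SC100 FP the estimates were 1.97 ± 0.65 (the Glyma.20G146200.1 pair, adjusted p = 0.56) to 4.31 ± 0.92 (Glyma.10G246500.1, adjusted p = 0.252). None of the 8, and 0% of all models, passed in edgeR, although all 8 had an unadjusted p under 0.05. DESeq2 called 3 of them higher, Glyma.10G246300.1 and the Glyma.20G148300.1 pair, which shares reads, and 31 of all 50963 models. The median was 2.47 for the 8 models and 3.79 for the 11 other seed storage models.

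The TE of the 8 models in seed coats was 0.0799 to 0.149 at SC25 (median 0.115) and 0.168 to 0.549 at SC100 (median 0.409), against medians of 0.446 over 1374 models and 0.483 over 1077 models. The 0.149 belongs to Glyma.10G246500.1, whose mean SC25 footprint level of 0.0387 RPKM (1 count) was raised to the floor of 0.1 RPKM. Its SC25 values in replicate pairs 1 and 2, 0.0911 and 0.408, rest on the same floor, so its place among the 8 is set by the floor. At SC25 the median was 0.0913 in pair 1 and 0.566 in pair 2, with SC25 CT replicate 1 in the first. At SC100 it was 0.659 in pair 1 and 0.193 in pair 2. At SC25 the Glyma.20G146200.1 pair was at 0.0883, above Glyma.02G145700.1 (0.0799). It was the lowest of the 8 models in replicate pair 1 (0.0446) and the highest in pair 2 (0.949 against 0.408 to 0.694), from 7 and 6 footprint counts. It had the lowest TE at SC100, 0.168 and 0.171, against 0.342 to 0.549 for the other 6 models, and lay below them in both replicate pairs (0.418 against 0.534 or more, and 0.0631 and 0.0648 against 0.182 or more). Its footprints there rested on 61 counts per model over both libraries.

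Footprints against control RNA gave no call among the 8 models within SC25 or SC100 with edgeR or DESeq2. At SC25 the median was -2.63, with 7 unadjusted p under 0.05 in edgeR and 2 in DESeq2, and 0.0364% of all models called. It became 1.47 without SC25 CT replicate 1, and it ran from -3.36 to 1.47 with a library left out. At SC100 the median was 0.11, with 2 unadjusted p under 0.05 in each tool, and 0% of all models called. The difference in TE between SC25 and C25 gave a median of -3.38, no call in either tool, 6 unadjusted p under 0.05 in edgeR and 3 in DESeq2, and 0% of all models called. The methods take CT and FP of a cotyledon sample from one powder, and the same was assumed for seed coats. With the powdered sample as a block, 2 models were called lower, Glyma.02G145700.1 (-3.71 ± 0.73, adjusted p = 7.75e-05, edgeR) and Glyma.10G246500.1 (-4.43 ± 1.07, adjusted p = 0.00455). These 2 models had 9 counts and 1 count in the SC25 footprints. The 0% of all models is from the fit without a block. The share of all models called with the powdered sample as the block is not given here, so the 2 calls cannot be set against it. With the replicate number as the block, 638 of 65006 models were called lower in this comparison. Without the block, the median was 0.83 without SC25 CT replicate 1, and it ran from -4.31 to 0.83 with a library left out.

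Other seed storage proteins gave a yardstick. A set of 11 further models from the study's list of storage proteins (4 glycinins, lectin, Kunitz-type trypsin inhibitors and 1 further conglycinin, Glyma.20G146300.1, among them) had 9 higher and 0 lower at C100 against C25, and 1 higher and 1 lower at C300 against C100. The higher one was the further conglycinin Glyma.20G146300.1 (log2 fold change 2.31 ± 0.27, adjusted p = 3.48e-05, edgeR, and 5.35 from C25 to C300), so the late rise was not limited to the Glyma.20G146200.1 pair. The lower one was the Kunitz-type inhibitor Glyma.08G341000.1 (-2.50 ± 0.24, adjusted p = 5.79e-06). Both are named after their values were seen. Their medians in these comparisons were 3.03 and -0.26, beside 2.71 and -0.07 for the 8 models. In SC100 CT all 11 were lower than in C100 CT, and in SC25 FP 10 were lower than in C25 FP. The study assembled its list from annotation, and 5 of the 11 are the cotyledon markers used above.

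The models outside the 8 with the most similar profiles were sought by Pearson's r of log2(RPKM + 0.1) over the 18 libraries among 2369 primary models. The points share libraries and fall into 2 tissues, so all high values of r rest in part on that split, and they are given as a description. For the Glyma.20G148300.1 pair they were the seed lectin Glyma.02G012600.1 (r = 0.998) and the glycinin Glyma.03G163500.1 (r = 0.992). For Glyma.10G246300.1 they were the same lectin (r = 0.994) and the Kunitz-type trypsin inhibitor Glyma.08G341500.1 (r = 0.990).

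The Glyma.20G146200.1 pair was closest to 2 lipoxygenases, enzymes that oxidise polyunsaturated fatty acids, Glyma.15G026300.1 (r = 0.982 and 0.983) and Glyma.13G347600.1 (r = 0.974). Their control RNA also rose in mean from stage to stage, at 69.5, 442 and 821 RPKM for Glyma.15G026300.1. Glyma.02G145700.1 was closest to the lipoxygenase Glyma.13G347500.1 and the papain-type protease Glyma.08G116300.1 (r = 0.991 for both). Glyma.10G028300.1 was closest to a Bowman-Birk protease inhibitor, Glyma.16G208900.1 (r = 0.991), and to Glyma.11G252800.1, a protein of unknown function (r = 0.990). Glyma.10G246500.1 was closest to the ureases Glyma.05G146000.1 (r = 0.989) and Glyma.08G103000.1 (r = 0.982), enzymes that release ammonia from urea.

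Among the 8 models, r was lowest between the Glyma.20G146200.1 pair and Glyma.10G246300.1, at 0.908. Between that pair and the other 6 models it reached at most 0.958, and among the other 6 models, copies aside, it was 0.954 to 0.997.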

How the data were processed

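The authors deposited 1 table per library with the count of alignments at each cDNA model and the cDNA length, and these counts are not normalised. Per the study's methods, Bowtie version 1 placed trimmed reads on Wm82.a2 cDNA models, allowing 0 mismatches and at most 25 alignments, and 132 rDNA models were removed. Here RPKM was computed from count, deposited cDNA length and library total, and TE as mean FP over mean CT RPKM, each at least 0.1. Because depth and the share of the most abundant model differ between libraries, tests used TMM.

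Fits ran in edgeR 4.0.16 under R 4.3.3 (quasi-likelihood test, two-sided) on models whose counts reached 10 in sum across a fit, with Benjamini-Hochberg adjustment over all models and a threshold of 0.05. The standard error given for an edgeR estimate is an approximation, the absolute log2 fold change divided by the square root of the test's F statistic. The script was tested on simulated data. Descriptions used Python 3.11.15, pandas 2.3.3 and matplotlib 3.10.9. Alternatives were DESeq2 1.42.0, other scalings and filters, primary models only, copies summed, a replicate block, other TE definitions and each library left out. CT and FP of one number and stage come from one powdered sample per the study's methods, which name the cotyledon libraries only. Their deviations from group means correlated at 0.0679 (C25), 0.426 (SC25) and 0.243 (SC100). The fits with both copy pairs summed, with the 4 libraries of a stage alone and with the powdered sample as a block were chosen after seeing the data. Named genes were the 8 models, 11 other storage models and, per model, the 2 most correlated primary models with a mean of at least 10 RPKM in a group. Members and lists were chosen with earlier results of these data known. No names of the reference table matched the models, so coordinates and sequences are not used here.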

Additional observations from a re-analysis of the deposited data

How the results depend on the processing

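Every member called in the main edgeR fit kept its direction under each alternative run. Over all comparisons, 33 of 1026 values of single members under other settings and 65 of 799 with a library left out changed sign. Of these, 0 were values called in the main fit. Some were called with the changed sign, as on library totals for C25 FP against CT (edgeR). There the adjusted p was 0.000875 for Glyma.02G145700.1, 0.00650 for Glyma.10G028300.1 and 0.000573 for Glyma.10G246500.1, all lower in the footprints. The fit of seed coat and cotyledon footprints with no filter and counts of 0 set to 1 was not run. The number of members called changed as follows, and where no construction is named the cause was not tested.

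From C100 to C300, 1 was called higher (of 2) with the copies summed or with both copy pairs summed, since the pair is then 1 row, and 2 to 3 were called with a library left out. From C25 to C300, 5 of 8 were called on library totals and 5 with no filter. For SC25 CT against C25 CT the 6 lower calls became 2 with no filter, 1 with the 4 libraries of the stage alone, and 2 to 8 with a library left out. For SC100 CT against C100 CT the 8 lower calls became 4 of 4 tested with at least 10 counts in every library, and 1 to 8 with a library left out. For SC25 FP against C25 FP they became 4 of 4 tested with that filter. For SC100 FP against SC25 FP, DESeq2 called 3 higher, and 31 of all 50963 models. For C25 FP against CT, 5 were lower on library totals, and with a library left out 0 to 6 were higher and 0 to 2 lower. For SC100 FP against CT, 2 were lower on library totals, and with a library left out 0 to 1 were higher and 0 to 2 lower. With a library left out, 0 to 2 were higher and 0 to 2 lower for SC100 CT against SC25 CT, 0 to 7 lower for the tissue difference between stages, 0 to 7 lower for SC25 FP against CT, and 0 to 8 lower for TE in SC25 against C25.

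Values not called in the main fit changed sign as follows. For Glyma.02G145700.1, the log2 change from C100 to C300 was 0.00537 in DESeq2, 0.0913 on library totals, 0.0198 with at least 10 counts in every library, 0.0219 with primary models only, and -0.13 to 0.10 with a library left out. For C25 FP against CT on library totals, it was -1.72 for Glyma.02G145700.1, -1.70 for Glyma.10G028300.1, -1.50 for Glyma.10G246300.1, -1.74 for Glyma.10G246500.1, -1.51 for Glyma.20G148300.1 and -1.53 for Glyma.20G148400.1. With a library left out it ran from -0.84 to 0.36 for Glyma.20G146200.1 and for Glyma.20G148200.1. The median of the 8 for SC100 FP against CT was -1.29 on library totals, -0.0520 on totals without the 1% most abundant models, -0.53 with no filter, -0.14 with at least 10 counts in every library, and -0.20 to 0.38 with a library left out. With a library left out, the median ran from -0.69 to 4.21 for SC100 CT against SC25 CT, -3.47 to 1.29 for the tissue difference, -3.36 to 1.47 for SC25 FP against CT, and for TE against C25 from -4.31 to 0.83 at SC25, -0.0873 to 0.62 at C100 and -0.00614 to 0.67 at C300.

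The median TE of the 8 was 1.48 (C25), 1.74 (C100), 1.89 (C300) and 1.09 (SC100) on TMM-scaled RPKM, and 1.38, 1.73, 2.06 and 0.964 on totals without the 1% most abundant models. At SC25 it was 0.566 in pair 2 and 0.0599 to 0.906 with a library left out. A TE rise at both steps held for 5 of 8 members on TMM-scaled RPKM. The highest footprint level was at C300 for 4 members on TMM-scaled RPKM and for 5 on totals without the 1% most abundant models. A TE above 1 at C300 held for 2 members in pair 1, and for 2 to 8 with a library left out.

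Between stages and tissues, no source links replicate numbers. Deviations of same-numbered samples there correlated at -0.0817 to 0.378 over 15173 models, and the replicate block left the number of members called within 1.5 times. For TE in SC25 against C25, 2 members were called lower with the replicate number as the block, as were 638 of all 65006 models. With the powdered sample as the block, an alternative chosen after seeing the data, 2 members were called lower, and the share of all models called is not given here. The block changed no other number of members called by over 1.5 times.

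Over all models, calls for C100 against C25 numbered 5052 higher and 4109 lower, against 2488 and 944 in DESeq2 and 1198 and 29281 on library totals. For C300 against C25 they numbered 7706 and 7350, against 3690 and 2683 in DESeq2 and 2505 and 24847 on totals. For C300 against C100 they numbered 1842 and 1721, against 643 and 550 in DESeq2. For C25 FP against CT they numbered 3670 and 2816, against 407 and 50284 on totals. For SC25 FP against C25 FP they numbered 533 and 1662, against 5903 and 674 on totals, and for SC100 CT against C100 CT 2265 and 2376, against 4202 and 883. Depth limits Glyma.10G246500.1, Glyma.02G145700.1 and the Glyma.20G146200.1 pair in seed coats, where single libraries held under 10 counts.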
